A study of Mus musculus with 16 samples.

Results

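The Hox cluster genes and the Cdx genes were followed in Lhx1-null and wild-type mouse DE (definitive endoderm) cultures on expression arrays. The members were all array probes whose platform symbol was Hoxa, Hoxb, Hoxc or Hoxd followed by a number alone, together with the probes for Cdx1, Cdx2 and Cdx4. This rule took 61 of the 45281 probes and covered 41 genes. Of these, 19 probes for 10 genes were Hoxa, 15 probes for 10 genes were Hoxb, 11 probes for 9 genes were Hoxc, 12 probes for 9 genes were Hoxd and 4 probes for 3 genes were Cdx.

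The study compared cultures that lacked Lhx1, a LIM homeodomain factor of the node and anterior endoderm, with wild-type cultures while ES cells were driven towards DE. ES cell lines were derived from blastocysts of crosses between heterozygous carriers of an Lhx1 deletion, and 4 independent lines of each genotype were used per the study's methods. All cultures, of both genotypes, were treated in the same way with Activin A and EGF after LIF had been withdrawn. The 16 arrays fell into 4 groups of 4 cultures, namely Lhx1-null at day 5, wild-type at day 5, Lhx1-null at day 6 and wild-type at day 6. Each array measured RNA from a whole culture, and the line behind each culture was not given in the sources used here, so that the same line may stand behind a day 5 and a day 6 culture.

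Hox genes encode homeodomain factors that give cells their position along the head-to-tail axis. They lie in clusters in which genes at the 3′ end, with low paralog numbers, are switched on early and anteriorly, while genes at the 5′ end, with high paralog numbers, are switched on later and more posteriorly. The Cdx genes are related homeodomain factors, and in the mouse embryo they act downstream of Wnt and Fgf signals to turn on central Hox genes in the posterior primitive streak, tail bud and hindgut. Cdx2 also acts in the trophectoderm and in the intestinal epithelium. Most Hox genes are held silent by Polycomb complexes in ES cells.

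Signal was judged by the detection p-value deposited with each intensity, and a probe with a p under 0.01 on an array is called above background there. The share of all probes above background was between 23.7 and 34.1% of the 45281 probes per array, and the lowest array of each group was replicate 3. No arrays held identical values. The Lhx1 probe read 13.67, 13.43, 14.49 and 8.15 on the log2 intensity scale in null day 5 replicates 1 to 4, against 14.69, 14.73, 14.80 and 14.39 in wild-type day 5. Its day 6 readings were 14.03, 9.76, 13.10 and 13.84 in null cultures, against 14.88, 14.34, 14.57 and 14.77 in wild-type cultures. The position of this probe relative to the deleted part was not given, so that its signal neither bears out nor contradicts a label. Null day 5 replicate 4 and null day 6 replicate 2 stood apart from the other null cultures in many genes, and the results that rest on them are given with and without them. The labels of null day 6 replicates 3 and 4 conflicted, since their descriptions carried the same replicate number, and the titles were used.

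Few Hox and Cdx probes gave signal, and those that did were found mainly on null arrays. Of 976 probe readings of members, 103 were above background, or 10.6%. On null day 5 arrays 44 of 244 readings were above background (18.0%), against 10 of 244 (4.10%) on wild-type day 5 arrays. On null day 6 arrays the count was 38 of 244 (15.6%), against 11 of 244 (4.51%) on wild-type day 6 arrays. Over all probes on the arrays the same shares were 30.6% in null day 5, 29.2% in wild-type day 5, 31.2% in null day 6 and 30.9% in wild-type day 6, and thus close together in the 4 groups. By gene, 22 members were above background on at least 1 of the 8 null arrays, against 6 on at least 1 of the 8 wild-type arrays. All 6 of the genes detected in wild-type cultures, Cdx2, Hoxa2, Hoxa13, Hoxb1, Hoxb2 and Hoxc6, were also detected in null cultures. The other 16, Cdx1, Hoxa5, Hoxa7, Hoxa9, Hoxb3 to Hoxb7, Hoxc9, Hoxc10, Hoxc13, Hoxd4, Hoxd8, Hoxd9 and Hoxd10, were detected on null arrays alone. A single array is enough to enter this count, as it was for Hoxb3 and Hoxc13. Hoxa7, Hoxa9, Hoxb4 to Hoxb7 and Hoxc10 all entered through the same 2 null arrays. The count by gene was not made over all genes, so that 22 against 6 has no background share beside it.

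The signal was not shared evenly among the null cultures. Null day 5 replicates 1 to 4 had 16, 4, 4 and 20 member probes above background, against 4, 2, 1 and 3 in wild-type day 5. At day 6 the null cultures had 3, 21, 5 and 9, against 2, 6, 1 and 2 in the wild-type cultures. Means were 11 ± 8.25 in null and 2.5 ± 1.29 in wild-type cultures at day 5, and 9.5 ± 8.06 in null and 2.75 ± 2.22 in wild-type cultures at day 6 (SD, n = 4 each). At day 5 the lowest null arrays only equalled the highest wild-type array, and at day 6 the groups overlapped, with 4 null arrays between 3 and 21 and 4 wild-type arrays between 1 and 6. Null day 5 replicate 4 and null day 6 replicate 2 accounted for 41 of the 82 readings above background in null cultures. With detection p under 0.05 the same 2 arrays had 27 and 30 member probes above background, and with a detection p of 0 they had 18 and 21, the highest counts under either threshold.

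**Figure D1:**
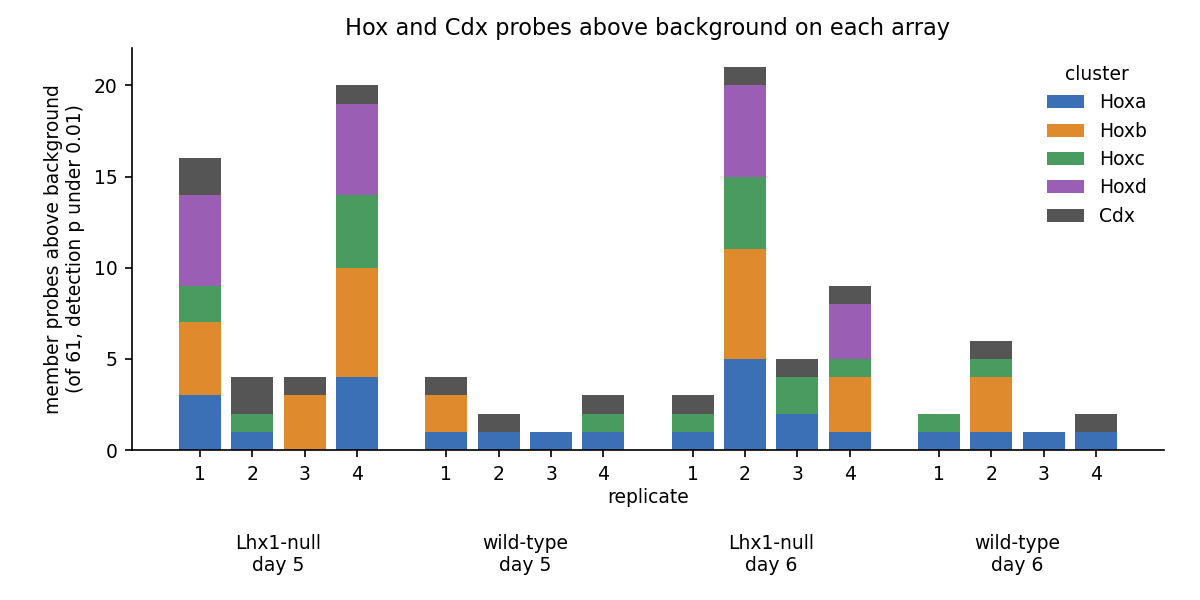
Number of the 61 Hox and Cdx probes above background (detection p under 0.01, y axis) on each of the 16 arrays (x axis, replicate within group), stacked by cluster. Null day 5 replicates 1 and 4 and null day 6 replicate 2 had 16, 20 and 21 probes, and the wild-type arrays had between 1 and 6.

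The arrays with the most signal held overlapping sets of probes. All 20 probes above background in null day 5 replicate 4 were also above background in null day 6 replicate 2, which is 100% of the day 5 set and 95.2% of the 21 probes of the day 6 set, and the remaining probe was that of Hoxa5. Null day 5 replicate 1 held a different set. It shared 10 probes with null day 5 replicate 4, which is 62.5% of its own 16 and 50% of the 20. The 10 probes that it lacked were those of Hoxa7, Hoxa9, Hoxb4, Hoxb5, Hoxb6, Hoxb7 and Hoxc10, while its own 6 further probes were those of Hoxa2, Hoxa5, Hoxb1, Hoxb3 and Cdx1. All 9 probes of null day 6 replicate 4 were within the 16 of null day 5 replicate 1, or 56.2% of them. Whether these cultures came from the same line was not given.

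By position in the clusters, genes of paralog groups 1 to 4 had 19 readings above background on null arrays, against 6 on wild-type arrays, of 152 possible in each genotype. Paralog groups 5 to 8 had 22 on null arrays, against 3 on wild-type arrays, of 96 possible in each. Paralog groups 9 to 13 had 31 on null arrays, against 7 on wild-type arrays, of 208 possible in each. All 7 of the latest-class readings in wild-type cultures came from Hoxa13, and all 3 of the central-class readings came from Hoxc6. The Hoxd cluster had 18 readings above background, none of them on a wild-type array. By cluster, 8.22% of Hoxa, 11.2% of Hoxb, 10.2% of Hoxc, 9.38% of Hoxd and 23.4% of Cdx readings were above background over all 16 arrays.

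**Figure D2:**
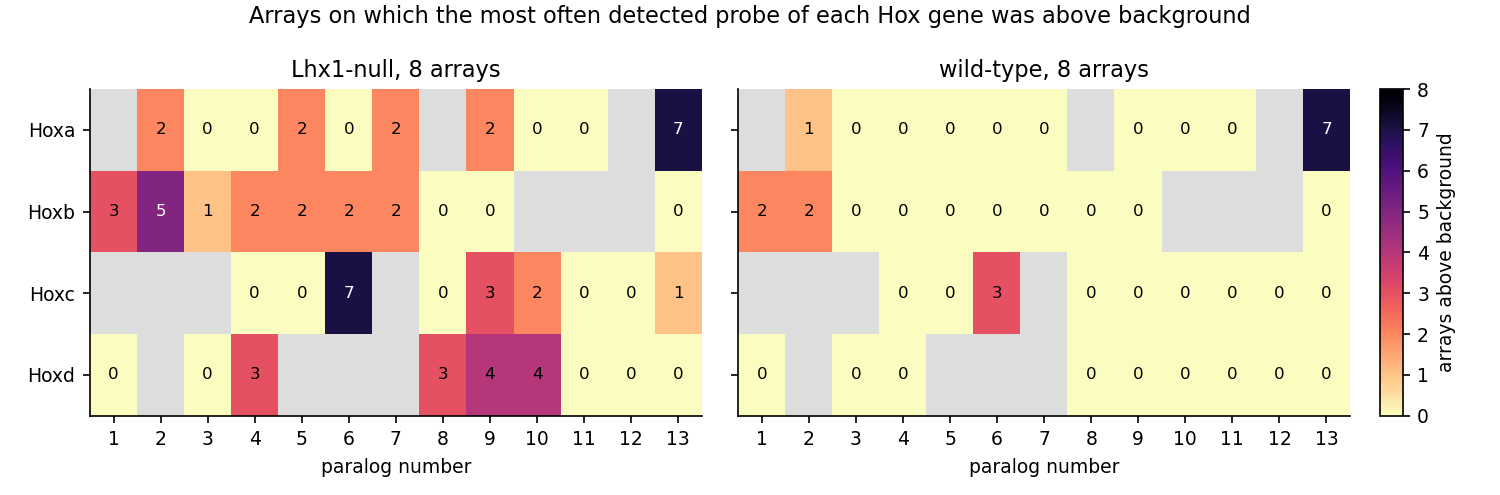
Number of arrays (colour and printed value, of 8 per genotype) on which the most often detected probe of each Hox gene was above background, by cluster (rows) and paralog number (columns), with grey where no probe was a member. Hoxa13 was above background on 7 arrays of each genotype, Hoxc6 on 7 null and 3 wild-type arrays, and no Hoxd gene on a wild-type array.

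The central Hoxb genes differed sharply between single cultures. Hoxb5 read 11.29 in null day 5 replicate 4 and 10.80 in null day 6 replicate 2, against 5.39 to 7.25 on the other 14 arrays. Hoxb6 read 10.79 and 9.71 in the same cultures, against 5.21 to 6.15. Hoxb7 read 12.01 and 10.97, against 5.24 to 6.52. The second Hoxb7 probe gave the same picture, with 10.41 and 10.13, against 5.18 to 5.85 elsewhere. Hoxb4, on the 3′ side of these, read 8.10 and 7.79, against 5.10 to 6.70. On the 5′ side Hoxb8, Hoxb9 and Hoxb13 were above background on no array, so that the end of the run could not be placed with these probes. Hoxb5, Hoxb6 and Hoxb7 are trunk-level Hox genes, expressed in the mouse embryo in posterior mesoderm, spinal cord and parts of the gut.

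Central and posterior genes of the other clusters were detected in the same cultures. Hoxc9 read 11.78 in null day 5 replicate 4 and 11.56 in null day 6 replicate 2, against 5.40 to 7.39 on the other 14 arrays, the highest of them null day 5 replicate 1. With wild-type taken at the lowest signal above background, the null mean of Hoxc9 was at least 1.12-fold higher at day 5 and at least 1.15-fold higher at day 6, and rested on those cultures. These bounds concern the observed means and carry no error, and Hoxc9 was above background on null arrays alone. Hoxc10, which acts at the lumbar level and in the hindlimb, read 8.96 and 9.36 with 1 probe, against 5.46 to 6.92, and 9.13 and 9.17 with the other, against 5.19 to 6.84. Both probes of Hoxc10, like both of Hoxb7, set the same 2 cultures apart. In the Hoxa cluster, Hoxa7 read 8.20 and 8.58, against 5.33 to 6.69. Hoxa9 had 3 probes, of which 2 separated these cultures, with 7.48 and 8.35 against 5.36 to 6.71, and with 7.39 and 8.14 against 5.14 to 5.59. The third Hoxa9 probe was above background on no array, so that the probes of this gene disagreed. Hoxa5, which patterns the lung and the cervical skeleton, passed at 7.30 in null day 5 replicate 1 and at 7.66 in null day 6 replicate 2, and was not above background in null day 5 replicate 4 at 6.15.

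In the Hoxd cluster, null day 5 replicate 1 joined them. Hoxd8 read 8.09 in null day 5 replicate 1, 8.83 in null day 5 replicate 4 and 9.13 in null day 6 replicate 2, and was not above background elsewhere. Hoxd4, a hindbrain and cervical gene, read 7.02, 7.64 and 7.67 in these same 3 cultures. Neither gene was above background on any of the 8 wild-type arrays, where Hoxd8 lay between 5.24 and 5.97 and Hoxd4 between 5.15 and 5.76.

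Hoxa2, Hoxb3 and Hoxc13 were above background in neither null day 5 replicate 4 nor null day 6 replicate 2. Hoxa2, the gene of the second branchial arch, passed at 7.30 in null day 5 replicate 1 and at 8.15 in null day 6 replicate 3, and its highest reading was 9.70 in wild-type day 6 replicate 3. Its reading of 8.08 in null day 5 replicate 3 did not pass, with a detection p of 0.0107 on the array with the highest background. The second Hoxa2 probe was above background on no array, lying between 5.19 and 5.98, so that the probes of this gene disagreed. Hoxb3 was above background on 1 array, null day 5 replicate 1, at 7.16. Another Hoxb3 probe, above background on no array, read 6.64 in null day 5 replicate 4 and 6.26 in null day 6 replicate 2, against 5.26 to 5.77 on the other 14. Hoxc13, a hair and nail gene, was above background on 1 array, null day 6 replicate 3, at 7.77, and not in null day 5 replicate 3 at 7.85.

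**Figure D3:**
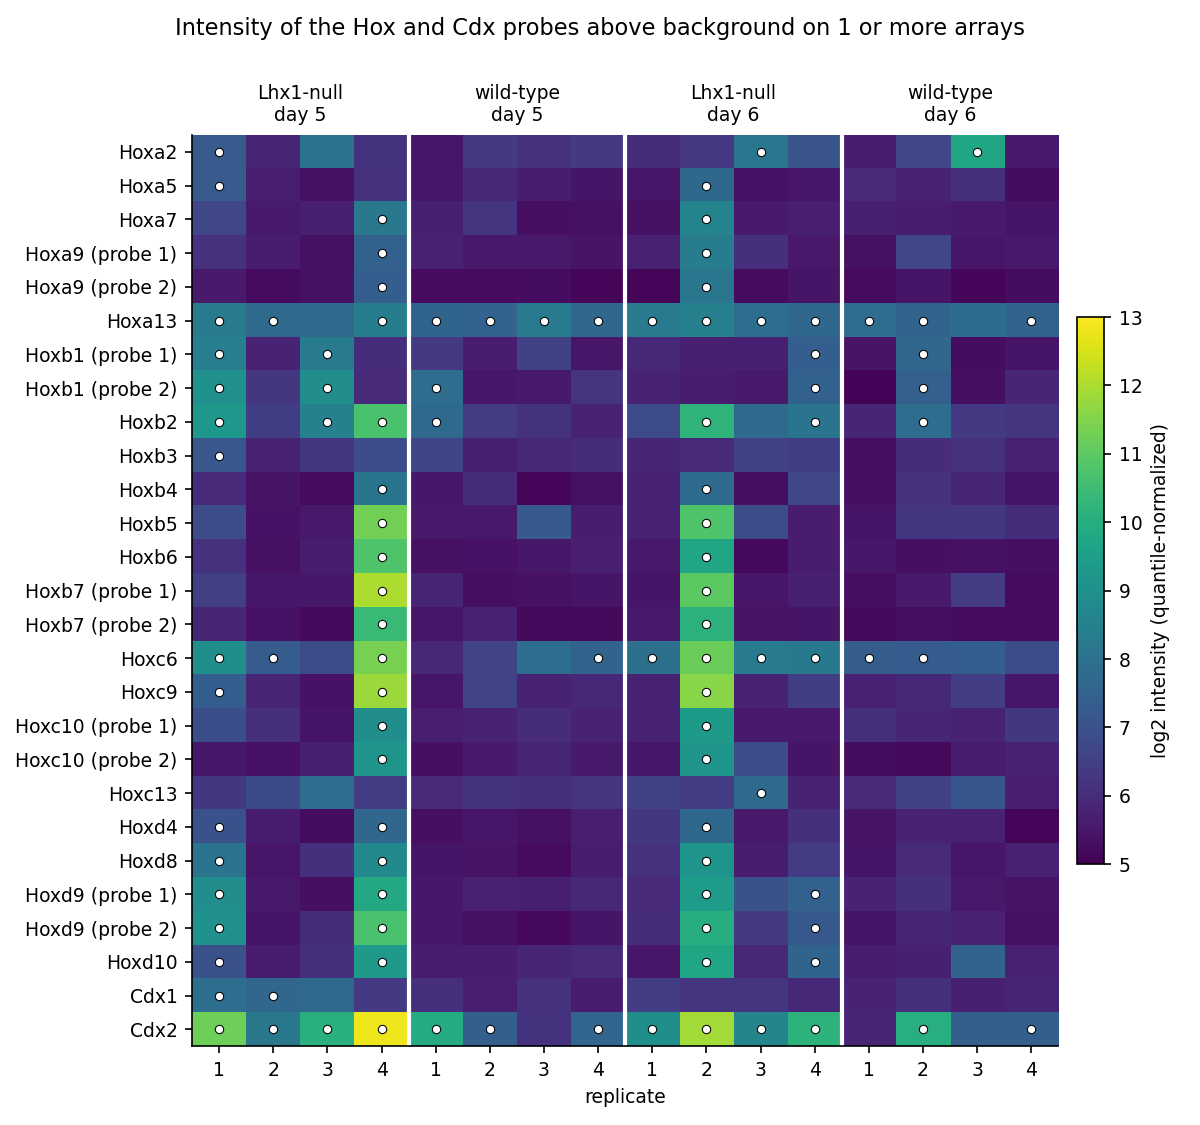
Log2 intensity after normalization (colour) of each Hox and Cdx probe that was above background on at least 1 array (rows), on each of the 16 arrays (columns, by group and replicate). Hoxb5 to Hoxb7 and Hoxc9 read between 9.71 and 12.01 in the cultures of null day 5 replicate 4 and of null day 6 replicate 2.

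The remaining 19 genes were above background on no array. These were Hoxa3, Hoxa4, Hoxa6, Hoxa10 and Hoxa11, Hoxb8, Hoxb9 and Hoxb13, Hoxc4, Hoxc5, Hoxc8, Hoxc11 and Hoxc12, Hoxd1, Hoxd3, Hoxd11, Hoxd12 and Hoxd13, and Cdx4. Several sit between detected neighbours, as Hoxa6 does between Hoxa5 and Hoxa7, and their absence was read as not detectable with these probes rather than as no expression. Gene by gene, the arrays above background numbered 3 for Hoxa2, Hoxc9, Hoxd4 and Hoxd8, 2 for Hoxa5, Hoxa7, Hoxa9, Hoxb4, Hoxb5, Hoxb6, Hoxb7, Hoxc10 and Cdx1, and 1 for Hoxb3 and Hoxc13.

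For the comparison of genotypes, probes above background on at least 4 arrays were kept, and the kept probe with the highest mean stood for each gene. This left 10939 genes, of which 7 were members, namely Cdx2, Hoxb1, Hoxb2, Hoxc6, Hoxd9, Hoxd10 and Hoxa13. The filter takes genes detected in at least 4 cultures, so that these 7 do not stand for all 41, and 2 of them, Hoxd9 and Hoxd10, passed it through null arrays alone. In bulk RNA a difference of this kind can come from more cells with a transcript or from more transcript per cell, and these cannot be told apart. All values below are log2 intensities after normalization, and a difference of them is a log2 fold change from limma. The 4 null and 4 wild-type cultures of a day are given in the order of replicates 1 to 4.

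Cdx2 was above background in all 8 null cultures and in 5 of 8 wild-type cultures. At day 5 it read 11.23, 8.19, 10.08 and 12.81 in null cultures, against 9.93, 7.41, 6.16 and 7.60 in wild-type cultures. The readings of day 6 were 8.99, 11.89, 8.64 and 10.17 in null cultures, against 5.83, 10.06, 7.41 and 7.42 in wild-type cultures. In each day 3 of 4 wild-type cultures lay below every null culture, and wild-type day 5 replicate 1 and wild-type day 6 replicate 2 lay within the null range. The null mean was 10.58 ± 1.95, against 7.78 ± 1.57 in wild-type at day 5 (SD, n = 4 each), a log2 fold change of 2.80 with a 95% interval of 0.46 to 5.14. It did not pass the threshold (limma adjusted p = 0.308), nor did the day 6 difference of 2.24, with means of 9.92 ± 1.47 in null and 7.68 ± 1.75 in wild-type cultures (limma adjusted p = 0.385).

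Hoxb2, which patterns the hindbrain, followed a similar order of cultures. At day 5 it read 9.28, 6.50, 8.49 and 10.69 in null cultures, against 7.76, 6.38, 6.18 and 5.75 in wild-type cultures. At day 6 it read 6.84, 10.21, 7.74 and 8.08 in null cultures, against 5.87, 7.85, 6.37 and 6.20 in wild-type cultures. As for Cdx2, the highest wild-type cultures were day 5 replicate 1 and day 6 replicate 2. The log2 fold change was 2.22 (SE 0.83) at day 5 and 1.65 at day 6, and neither passed (limma adjusted p = 0.281 and 0.407).

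Hoxb1, the most 3′ gene of its cluster and an early marker of the posterior streak and of rhombomere 4, had a different pattern. The probe that stood for it read 9.06, 6.27, 8.92 and 5.97 in null day 5 cultures, against 7.86, 5.53, 5.56 and 6.19 in wild-type day 5 cultures. Its day 6 readings were 5.76, 5.62, 5.57 and 7.47 in null cultures, against 5.07, 7.44, 5.32 and 5.85 in wild-type cultures. It was thus high in null day 5 replicates 1 and 3 and not in null day 5 replicate 4 or null day 6 replicate 2, the cultures with the central Hox genes. Its second probe read 8.42 and 8.30 in null day 5 replicates 1 and 3, and 6.05 and 5.72 in the cultures with the central Hox genes. The log2 fold change was 1.27 (SE 0.79) at day 5 and 0.19 at day 6 (limma adjusted p = 0.575 and 0.968), and the day 6 value changed sign without null day 6 replicate 4, at -0.27, without wild-type day 6 replicate 1, at -0.10, and without wild-type day 6 replicate 3, at -0.01.

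The promoters of 4 tested genes are shown, those in the promoter table whose readings differed widely between single cultures, and Hoxb1 is known in the mouse to be held on by its own product through paired Pbx-Hox sites. The sequences are from RefSeq on GRCm38.p6, from 250 bases before to 50 bases after the annotated start, read 5′ to 3′ on the gene's strand. Capitals mark matches, on either strand, to the motifs searched. These were TGATNNAT (a Pbx-Hox core), TTTATG (a Cdx core), TAATTA (a homeodomain core), ATGCAAAT (the octamer bound by Pou5f1), CCAAT (the CCAAT box) and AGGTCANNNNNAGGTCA (a direct repeat of the retinoic acid half-site), none of which contains another. The Cdx2 promoter lay on the minus strand at chr5:147307200-147307499, the Hoxb1 promoter on the plus strand at chr11:96365508-96365807, the Hoxd9 promoter on the plus strand at chr2:74697513-74697812 and the Hoxd10 promoter on the plus strand at chr2:74691641-74691940.
Cdx2: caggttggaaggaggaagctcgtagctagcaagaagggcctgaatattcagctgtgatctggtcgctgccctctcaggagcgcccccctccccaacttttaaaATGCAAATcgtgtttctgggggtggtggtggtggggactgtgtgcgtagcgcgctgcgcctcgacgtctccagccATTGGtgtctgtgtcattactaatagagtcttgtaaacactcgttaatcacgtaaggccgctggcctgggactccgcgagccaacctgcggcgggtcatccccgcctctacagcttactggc
Hoxb1: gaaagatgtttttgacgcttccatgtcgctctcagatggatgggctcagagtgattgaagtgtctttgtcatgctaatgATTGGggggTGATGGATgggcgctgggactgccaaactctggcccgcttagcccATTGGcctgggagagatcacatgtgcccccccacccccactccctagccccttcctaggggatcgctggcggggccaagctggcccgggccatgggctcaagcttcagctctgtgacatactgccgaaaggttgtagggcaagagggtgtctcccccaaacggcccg
Hoxd9: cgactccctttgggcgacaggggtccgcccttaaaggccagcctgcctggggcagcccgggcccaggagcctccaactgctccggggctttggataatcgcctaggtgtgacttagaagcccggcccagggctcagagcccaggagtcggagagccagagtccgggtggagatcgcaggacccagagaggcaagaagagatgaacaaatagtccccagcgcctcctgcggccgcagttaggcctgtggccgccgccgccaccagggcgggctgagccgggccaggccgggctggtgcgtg
Hoxd10: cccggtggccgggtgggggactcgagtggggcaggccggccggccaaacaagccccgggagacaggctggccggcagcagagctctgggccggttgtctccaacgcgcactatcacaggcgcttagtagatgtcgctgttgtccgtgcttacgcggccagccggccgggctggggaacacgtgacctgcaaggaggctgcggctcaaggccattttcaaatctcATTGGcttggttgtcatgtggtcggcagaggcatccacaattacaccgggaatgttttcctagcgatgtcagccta
Cdx2 had 1 octamer and 1 CCAAT box in this window, Hoxb1 had 1 Pbx-Hox core and 2 CCAAT boxes, Hoxd10 had 1 CCAAT box and Hoxd9 had no match. Promoters were found for 24 of the 41 member genes, as 26 windows. The octamer was in 2 of the 26 (Cdx2 and Cdx4), and in 1.74% of all 32851 promoters of this length. The Pbx-Hox core was in 4 (Hoxa2, Hoxb1, Hoxb8 and Hoxd11), and in 8.85% of all. The Cdx core was in 5 (Hoxa7, Hoxb8, Hoxd3, Hoxd4 and Hoxd11), and in 11.9% of all. TAATTA was in 2, both of Hoxd11, and in 5.29% of all, and the CCAAT box was in 17, and in 37.4% of all. The retinoic acid repeat was in none of the 26, and in 0.00913% of all promoters. Member promoters had a median of 57.3% G+C and 14.5 CpG per window, against 52.7% and 7 over all promoters. Within the members, the 12 promoters of genes above background on at least 1 array had a median of 57.7% G+C and 12 CpG, against 56.2% and 17.5 CpG for the 14 promoters of genes never above background. Not found in the promoter table were Cdx1, Hoxa4, Hoxb2, Hoxb3, Hoxb5, Hoxb6, Hoxb7, Hoxb9, Hoxb13, Hoxc5, Hoxc6, Hoxc8, Hoxc9, Hoxc10, Hoxc11, Hoxc12 and Hoxc13.

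Hoxc6, a thoracic gene, was above background in 7 of 8 null cultures and in 3 of 8 wild-type cultures. At day 5 it read 8.995, 7.32, 6.86 and 11.36 in null cultures, against 5.90, 6.60, 7.89 and 7.54 in wild-type cultures. The readings of day 6 were 7.95, 11.19, 8.30 and 8.23 in null cultures, against 7.37, 7.34, 7.38 and 6.83 in wild-type cultures. At day 6 every null culture lay above every wild-type culture, which was so for 3.46% of all genes tested, and at day 5 the groups overlapped. The log2 fold change was 1.65 (SE 0.88) at day 5 and 1.69 at day 6 (limma adjusted p = 0.493 and 0.427). Without the cultures that stood apart it was 0.74 at day 5 and 0.93 at day 6.

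Hoxd9 and Hoxd10 lie side by side in the posterior part of their cluster and act in the lumbosacral region and limb. Hoxd9 read 8.92, 5.55, 5.32 and 9.84 in null day 5 cultures, against 5.52, 5.73, 5.70 and 5.92 in wild-type day 5 cultures. At day 6 it read 5.94, 9.42, 6.99 and 7.48 in null cultures, against 5.81, 6.11, 5.54 and 5.41 in wild-type cultures. It was above background on 4 arrays, of null day 5 replicates 1 and 4 and of null day 6 replicates 2 and 4, and in no wild-type culture, so that its level in wild-type cultures is only a bound. The second Hoxd9 probe was above background on the same 4 arrays, at 9.05 and 10.71 in the day 5 cultures and 9.98 and 7.21 in the day 6 cultures. Its 4 null readings all lay above its 4 wild-type readings at day 6, whereas those of the first probe overlapped. Such a separation held for 3.46% of all genes tested at day 6. The second probe was itself not above background in null day 6 replicates 1 and 3, with detection p of 0.0801 and 0.0929. The fitted log2 fold change of the first probe was 1.69 (SE 0.89) at day 5 and 1.74 at day 6 (limma adjusted p = 0.488 and 0.415). That of the second probe was 2.42 at day 5 (limma adjusted p = 0.356 over all kept probes). With wild-type taken at the lowest signal above background, the day 5 null level of the second probe was at least 1.29-fold higher, and the first probe gave no such bound. At day 6 the null level was at least 1.19-fold higher by the first probe and at least 1.15-fold higher by the second.

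Hoxd10 was above background on those same 4 arrays. It read 6.999, 5.65, 6.07 and 9.32 in null day 5 cultures, against 5.65, 5.60, 5.86 and 5.995 in wild-type day 5 cultures. Its day 6 readings were 5.47, 9.73, 5.90 and 7.58 in null cultures, against 5.64, 5.71, 7.56 and 5.74 in wild-type cultures. The groups overlapped on both days. The log2 fold change was 1.24 (SE 0.88) at day 5 and 1.01 at day 6 (limma adjusted p = 0.635 and 0.704), and without the cultures that stood apart it was 0.46 at day 5 and 0.15 at day 6.

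Hoxa13, the most 5′ gene of its cluster and a gene of the hindgut end and the digits, differed from the others in having nearly the same signal everywhere. It read 8.27, 7.78, 7.75 and 8.37 in null day 5 cultures, against 7.59, 7.51, 8.25 and 7.63 in wild-type day 5 cultures. The readings of day 6 were 8.28, 8.48, 7.89 and 7.70 in null cultures, against 7.87, 7.53, 7.82 and 7.54 in wild-type cultures. The log2 fold change was 0.30 (SE 0.22) at day 5 and 0.40 at day 6 (limma adjusted p = 0.656 and 0.461). This probe was above background on 14 of 16 arrays and the other 2 Hoxa13 probes on none, and which of them reports the transcript was not tested.

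**Figure D4:**
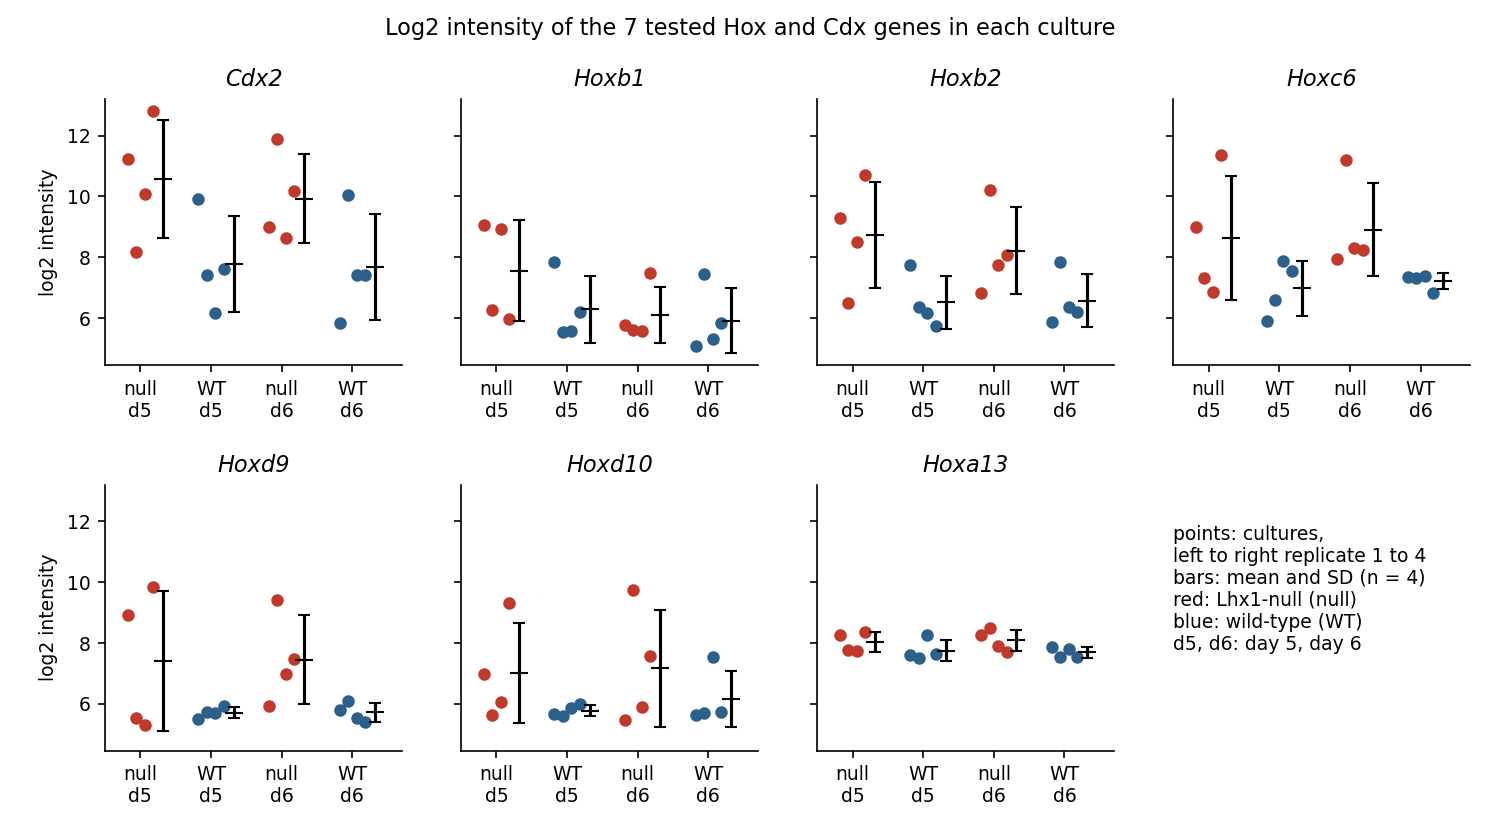
Log2 intensity (y axis) of the 7 tested Hox and Cdx genes in each culture (points, from left to right replicates 1 to 4), with the mean and SD (n = 4) beside each group on the x axis. Cdx2, Hoxb2, Hoxc6, Hoxd9 and Hoxd10 spread widely within the null groups, and Hoxa13 lay between 7.51 and 8.48 in all 16 cultures.

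None of the 7 tested members passed limma's adjusted p of 0.05 at either day, where 0.558% of the 10939 genes passed at day 5 and 1.57% at day 6. Without adjustment, Cdx2 and Hoxb2 had a p under 0.05 at day 5, as did 11.9% of all genes, and no member did at day 6, where 13.9% of all genes did. Every log2 fold change of the 7 was above 0 on both days, where that was so of 52% of genes at day 5 and 50.6% at day 6, but Hoxd9 and Hoxd10 had passed the filter on null arrays alone, which favours that sign. The median over the 7 was 1.65 at day 5 and 1.65 at day 6, against 0.01 and 0.00 over all genes. With no filter, the median over the 41 members was 0.50 at day 5 and 0.25 at day 6, against 0.01 and 0.01 over the 29453 features then tested. Of these 41 members, 19 were above background on no array. Between same-numbered cultures of day 5, null was higher in 4 of 4 for Cdx2, Hoxb2 and Hoxd10, in 3 for Hoxc6, Hoxa13 and Hoxb1 and in 2 for Hoxd9. The smallest Hoxd10 difference was 0.05, between readings not above background. These pair counts were not made over all genes, and the labels name no source for the pairing, so that no conclusion is drawn from them. At day 5 none of the 7 tested members had groups that did not overlap with null higher, where 2.08% of all genes tested did.

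The spread between cultures of the same group was wide for 6 of the 7. The residual SD of Cdx2 was 1.69, above that of 99.6% of the genes tested, and those of Hoxd9, Hoxc6, Hoxd10, Hoxb2 and Hoxb1 were above 98.6, 98.5, 98.5, 98.2 and 97.7% of genes. That of Hoxa13 was 0.31, above 39.7% of genes, and the median over all genes was 0.36. Without null day 5 replicate 4 and null day 6 replicate 2, the median log2 fold change of the 7 was 0.88 at day 5 and 0.93 at day 6, with no member called. Cdx2 was then at 2.06 and 1.59, Hoxb2 at 1.57 and 0.98, Hoxd9 at 0.88 and 1.08, Hoxb1 at 1.80 and 0.35 and Hoxa13 at 0.19 and 0.26, with day 5 before day 6.

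**Figure D5:**
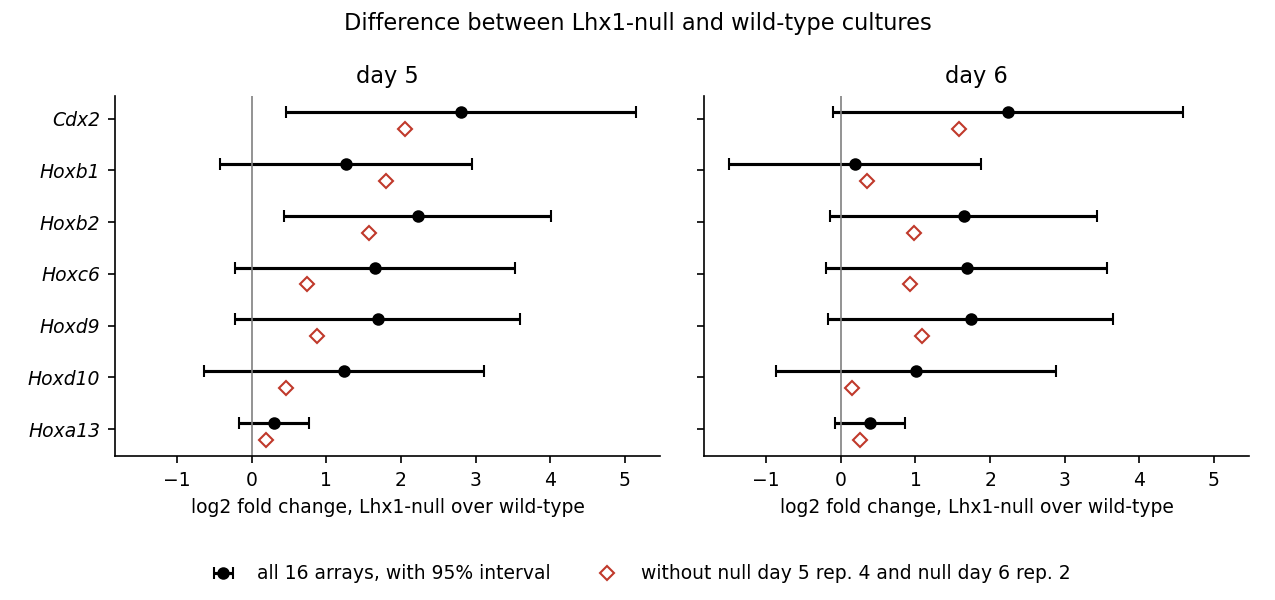
Log2 fold change of null over wild-type cultures (x axis, with 95% interval) of the 7 tested Hox and Cdx genes at day 5 and day 6, over all 16 arrays and without null day 5 replicate 4 and null day 6 replicate 2. All intervals are wide beside that of Hoxa13, and the values of Hoxc6 were 1.65 and 1.69 with all arrays and 0.74 and 0.93 without those cultures.

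Cdx1, an early posterior streak and hindgut gene, was kept out by the filter, having been above background on 2 arrays alone. The probe concerned read 7.88, 7.64, 7.78 and 6.34 in null day 5 cultures, against 6.08, 5.67, 6.13 and 5.64 in wild-type day 5 cultures. At day 6 it read 6.44, 6.20, 6.21 and 5.90 in null cultures, against 5.81, 6.06, 5.70 and 5.84 in wild-type cultures. At day 5 every null culture lay above every wild-type culture, and the lowest null reading was that of replicate 4, the culture in which Cdx2 was highest. Such a separation held for 2.08% of the 10939 genes kept by the filter, to which Cdx1 did not belong. Null day 5 replicates 3 and 4 were not above background, with detection p of 0.0182 and 0.0470, nor was any wild-type culture. The separation thus lay partly among readings that did not pass. With a wider filter, detection p under 0.05 on at least 4 arrays, 16 members were among 13415 genes tested and Cdx1 was the only member called. It passed this filter through 5 null arrays and no wild-type array, so that its entry itself favoured a higher level in null, and the call is no independent evidence of a difference. The log2 fold change was then 1.53 (SE 0.28, means of 7.41 ± 0.72 in null and 5.88 ± 0.26 in wild-type cultures, limma adjusted p = 0.0298) at day 5, where 0.365% of genes were called, and 0.33 at day 6 (limma adjusted p = 0.705), where 1.2% were called. With no filter at all it did not pass (limma adjusted p = 0.0643). The second Cdx1 probe was above background on no array, nor was the Cdx4 probe.

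Between days, no member passed the test in either genotype, where 0 of the 10939 genes passed in any of these comparisons by limma, with 445 genes (4.07%) at an unadjusted p under 0.05 for day 6 against day 5 in null cultures and 133 (1.22%) in wild-type cultures. The widest difference among members was that of Hoxb1 in null cultures, at -1.45 (SE 0.79) for day 6 against day 5. The null effect at day 6 was also not distinguishable from that at day 5, with 0 of 10939 genes called and 106 (0.969%) at an unadjusted p under 0.05. Null and wild-type comparisons of the same day share no cultures, but the day comparisons reuse the cultures of the genotype comparisons.

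Genes that act on the Hox clusters were followed as lists. Axial extension, Wnt and Fgf genes turn on Cdx and Hox genes in the posterior streak. Of this list, 13 of 17 were tested and none was called at either day. On each day 12 of 13 had a log2 fold change above 0. Over all genes, 52% did at day 5 and 50.6% at day 6. The list's medians were 1.16 at day 5 and 1.36 at day 6, against 0.01 and 0.00 over all genes. Evx1, a homeobox gene at the 5′ end of the Hoxa cluster that marks the posterior streak, read 12.87, 11.99, 12.26 and 10.87 in null day 5 cultures, against 12.27, 10.85, 11.58 and 9.87 in wild-type day 5 cultures. Fgf8 read 8.57 in null day 5 replicate 4 and 8.33 in null day 6 replicate 2 and between 12.20 and 13.56 in the other 14 cultures. The cultures with the most Hox signal, 20 and 21 member probes above background, were thus the cultures with the least Fgf8. Null day 5 replicate 1, with 16 such probes, lay within the range of the other 14 cultures, and its mean over this list, 10.37, was the highest of all cultures.

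Of the retinoic acid genes, which set the 3′ Hox genes, 5 of 14 were tested. At day 6, 1 was higher and 1 lower, and none passed at day 5. Aldh1a3, an enzyme that makes retinoic acid, read 9.83, 8.44, 10.05 and 10.06 in null day 6 cultures, against 6.64, 6.40, 6.02 and 6.45 in wild-type day 6 cultures, and rose with a log2 fold change of 3.21 (SE 0.70, limma adjusted p = 0.0360). This call was lost in 11 of 30 alternative settings, 6 of them the omission of 1 day 6 culture (any but null or wild-type replicate 2), with limma adjusted p up to 0.260. Rarb, a retinoic acid receptor that is itself induced by the acid, read 6.70, 6.53, 6.39 and 5.88 in null day 6 cultures, against 10.98, 6.96, 9.30 and 10.06 in wild-type day 6 cultures, and fell by 2.95 on the log2 scale (SE 0.69, limma adjusted p = 0.0491). That call was lost in 25 of 30 settings, among them 13 of the 16 omissions of 1 culture, with limma adjusted p up to 0.268, and held without wild-type day 5 replicate 1 or 4 or wild-type day 6 replicate 2. With the authors' rank-invariant normalized values in place of quantile normalization, the day 6 log2 fold changes were 1.78 for Aldh1a3 and -1.71 for Rarb. At day 5 Aldh1a3 was at 1.14 (limma adjusted p = 0.573) and Rarb at -2.92 (limma adjusted p = 0.0760).

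None of the chromatin regulators and cofactors passed the test. Of the Polycomb and trithorax genes, 18 of 21 were tested and none was called at either day, with medians of -0.04 at day 5 and -0.08 at day 6. Ezh2, the methyltransferase of PRC2, read 13.32, 13.14, 13.11 and 13.21 in null day 5 cultures, against 13.17, 13.09, 13.11 and 13.38 in wild-type day 5 cultures, and Suz12 lay between 13.35 and 13.88 in all 16 cultures. Of the TALE cofactors that bind DNA with Hox proteins, 7 of 9 were tested and none was called, with medians of -0.11 and 0.33. Meis2 read 12.23 in null day 5 replicate 4 and 12.14 in null day 6 replicate 2, and Pbx2 lay between 8.98 and 10.33 in all 16 cultures. Of the segmental factors, 3 of 7 were tested and none was called, Gata6 lying between 12.11 and 13.39 and Nr6a1 between 9.98 and 11.82.

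The neighbourhood and the targets of the genes were also followed. Of 19 flanking genes of the Hox clusters, 11 were tested and none was called, with medians of -0.11 at day 5 and -0.05 at day 6. Hibadh, beside the Hoxa cluster, lay between 12.10 and 12.93 in all 16 cultures, and Atp5g2, beside the Hoxc cluster, lay between 12.63 and 12.98. Of the ParaHox and Evx genes, Evx1 alone was tested and Gsx1, Gsx2, Pdx1 and Evx2 were above background on no array. Of 12 known Hox and Cdx targets, 6 were tested and none was called, with medians of -0.58 and -0.68. The intestinal Cdx2 targets Cdh17, Isx, Muc2 and Krt20 were above background on no array. Hnf4a, another target tested, lay between 7.45 and 8.55 in null cultures and between 7.61 and 9.94 in wild-type cultures.

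Some lists of cell type markers held genes called between the genotypes, and others held none. Of 12 definitive endoderm markers, 10 were tested, with 2 lower in null at day 5 and 1 at day 6. Hhex fell by 2.40 on the log2 scale at day 5 (SE 0.32, limma adjusted p = 0.00458) and by 2.30 at day 6 (limma adjusted p = 0.00545), and Sox17 fell by 2.43 at day 5 (SE 0.50, limma adjusted p = 0.0459), with -1.64 at day 6 (limma adjusted p = 0.121). The Sox17 call was lost in 19 of 30 settings, 11 of them the omission of 1 culture, with limma adjusted p up to 0.176, and with same-numbered cultures as a block its adjusted p was 0.0519. The mean level of the list lay between 8.35 and 10.33 in null and 10.97 and 11.92 in wild-type cultures at day 5, and had its lowest values, 8.35 and 8.61, in the day 5 and day 6 cultures with the most Hox signal (null replicates 4 and 2). Hox signal and these markers thus ran in opposite directions in those cultures. Null day 5 replicate 1, with 16 member probes above background, had a list mean of 9.93, beside 9.89 in null day 5 replicate 2, with 4 such probes.

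Of 15 lateral plate and extraembryonic mesoderm markers, 9 were tested, with 1 higher in null at day 5 and 5 at day 6. Pmp22 rose by 2.46 at day 5 (SE 0.46, limma adjusted p = 0.0341) and by 3.63 at day 6 (limma adjusted p = 0.00388), and at day 6 Tbx3 rose by 2.59 (SE 0.35, limma adjusted p = 0.00482) and Msx1 by 2.68 (SE 0.41, limma adjusted p = 0.00676). The list's mean level lay between 9.01 and 11.56 in null and 8.14 and 9.50 in wild-type cultures at day 5, and between 10.72 and 11.41 in null and 8.60 and 9.42 in wild-type cultures at day 6. The highest levels, 11.56 and 11.41, again belonged to the day 5 and day 6 cultures with the most Hox signal. The day 5 call of Pmp22, the only day 5 call of the list, was lost in 13 of 30 settings, among them the omission of null replicate 1 or 4 or of wild-type replicate 2, 3 or 4 of day 5, or of wild-type day 6 replicate 4, with limma adjusted p up to 0.171. With same-numbered cultures as a block at day 5, Pmp22 was no longer called (limma adjusted p = 0.0924) and Msx1 was (log2 fold change of 1.94, limma adjusted p = 0.0340). Msx2 and Postn were above background on no array.

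Of 11 blood and endothelium markers, 7 were tested and 1 rose at day 6, namely Lmo2 with 2.81 (SE 0.47, limma adjusted p = 0.0111), a call lost without wild-type day 6 replicate 4 (limma adjusted p = 0.0503). Of 13 nascent and presomitic mesoderm markers, 9 were tested and none was called. The list's lowest mean levels, 6.41 and 6.85, were again those of the day 5 and day 6 cultures with the most Hox signal. Its highest, 10.04, was that of null day 5 replicate 1, which had 16 member probes above background. Mixl1 read 12.29, 11.53, 12.18 and 7.76 in null day 5 cultures, against 11.39, 10.07, 11.26 and 6.997 in wild-type day 5 cultures. Null day 5 replicate 4, the culture with Hoxb5 to Hoxb7, thus had low Mixl1, but wild-type day 5 replicate 4 read lower still. Null day 5 replicates 1 to 3 all had high Mixl1, so that it did not follow the Hox signal over the day 5 cultures.

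Cdx2 is also a trophoblast gene, and of 9 other trophoblast markers 5 were tested, with Ascl2 lower in null by 1.82 at day 5 (limma adjusted p = 0.0193) and 1.51 at day 6 (limma adjusted p = 0.0258), and Elf5 and Tpbpa above background on no array. The Ascl2 calls were lost in 9 of 30 settings at day 5 and 11 of 30 at day 6, with limma adjusted p up to 0.0963 and 0.104, and with the block at day 5 the adjusted p was 0.0552. With the rank-invariant values its log2 fold changes were -0.71 at day 5 and -0.63 at day 6. Of 10 neural markers, 2 were tested, with Map2 lower at day 6 by 1.32 (limma adjusted p = 0.0169, lost in 7 of 30 settings), while Sox1, Pax6, Olig2, Neurog2 and Tubb3 were above background on no array. Of 12 visceral and parietal endoderm markers, 6 were tested and none was called, Sparc lying between 10.98 and 14.03 and Ttr between 5.34 and 12.15, and Afp was above background on no array. Of 10 pluripotency genes, 9 were tested and none was called, with Dppa5a between 8.45 and 15.10 and Pou5f1 between 10.42 and 13.78. The part of these markers in the Hox and Cdx signal was not tested.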

How the data were processed

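Labelled RNA of 16 cultures was read on Illumina Mouse WG-6 v2 arrays, 1 array per culture. The authors deposited intensities summarised in GenomeStudio (version not given in the sources used here), not normalized and not background-subtracted, with a detection p-value per probe and array, deposited by the authors as the share of negative controls at least as bright. A second deposited table held the authors' rank-invariant normalized intensities and served as an alternative. Intensities were corrected with neqc of limma 3.58.1 in R 4.3.3 (normexp from negative controls inferred from the detection p-values, 936 by their step, offset 16, quantile normalization, log2). Of 45281 probes, 34885 had 1 symbol, 18 had several and 10378 had none in the platform annotation. A probe entered if its detection p was below 0.01 on 4 arrays or more (15593 probes), and the kept probe with the highest mean stood for each symbol, giving 10939 features, 1995 of them probes without a symbol. A group-means model was fitted with lmFit and eBayes over all 16 arrays, and genes with a Benjamini-Hochberg adjusted p under 0.05 were called. The fit was tested on simulated data. Bounds for probes below background took, per array, the higher of the probe's own value and the lowest signal above background. Array number and background limit the precision. The methods give 4 lines of each genotype, and the labels do not say which line a culture came from, so that p-values treat cultures as separate samples and lines may recur between days. At day 5 null and wild-type cultures of the same replicate number deviated together (correlations of deviations from group means between 0.14 and 0.36 over all 4 pairs) and were treated as paired in the alternative with a replicate block within day, whose value is given where it changes a call. The labels name no source for this pairing.

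The members and all gene lists were chosen with earlier results of these data known. Named were every tested member, every other member with its number of arrays above background, each member probe above background on at least 4 arrays, up to 3 called genes of each list or else the 2 brightest, and Lhx1. Hoxb5, Hoxb6, Hoxb7 and other members below the filter were described after their values were seen. Alternatives were the background correction, offset, scaling, filter, probes per gene, replicate block, samples in the fit, array weights, Eif2s3y as a covariate and leaving out each culture. Promoters came from RefSeq (GRCm38.p6) and were searched with Python 3.11.15. Levels of different probes were not set against each other.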

Additional observations from a re-analysis of the deposited data

Results flagged for a closer look

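Among 32 groups of 4 cultures checked over the tested members and the counts per array, 5 held a sample whose gap to its nearest neighbour exceeded Dixon's limit, where chance flags about 1 group in 20. Hoxc6 stood out in null day 6 replicate 2, at 11.19 on the log2 intensity scale, and at the low end in wild-type day 6 replicate 4, at 6.83. Hoxb1 stood out in null day 6 replicate 4, at 7.47. Hoxd10 stood out in wild-type day 6 replicate 3, at 7.56, which was not above background. Hoxa13 stood out in wild-type day 5 replicate 3, at 8.25.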

How the results depend on the processing

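No tested member was called at either day under any alternative, except that Cdx1 entered and was called at day 5 with detection p under 0.05 as the filter, giving 1 member called there. For the named members, 416 fold changes kept their direction and their side of the threshold and 4 turned, all of Hoxb1 at day 6. It was -0.23 without null day 6 replicates 3 and 4, whose labels conflict, and it ran from -0.27 to 0.69 when each culture was left out in turn (-0.27 without null replicate 4, -0.10 without wild-type replicate 1 and -0.01 without wild-type replicate 3). For the other named genes, 479 values kept their side, 102 lost the call and 19 gained it, and none turned. The losses lay mostly in Rarb at day 6 (25 of 30 settings), Sox17 at day 5 (19), Pmp22 at day 5 (13), Aldh1a3 at day 6 (11) and Ascl2 at day 6 (11) and day 5 (9). Leaving out each culture gave 0 members called every time, with member medians between 0.88 and 2.24 at day 5 and between 0.93 and 2.01 at day 6. The number of all genes called then ran from 11 (without wild-type day 5 replicate 2) to 178 (without wild-type day 5 replicate 1) at day 5, and from 33 (without wild-type day 6 replicate 4) to 337 (without wild-type day 6 replicate 2) at day 6. The main counts were 61 and 172. Other settings that moved them by over 1.5 times were no filter (21 at day 5 and 82 at day 6), a fit to day 5 alone (16), array weights (1153 at day 6), Eif2s3y as a covariate (6 and 53) and removal of the cultures with conflicting labels (5 at day 6). The mean null effect over both days, added after seeing the data, called 875 genes and no member, with Hoxb2 lowest at an adjusted p of 0.0603 by limma. It counts the 8 cultures of a genotype as separate although lines may recur between days, so that its p-values may be too small. The mean number of member probes above background in wild-type cultures was 6 at day 5 and 6 at day 6 with detection p under 0.05, and 0.5 at day 5 with a detection p of 0. At day 6 replicate numbers did not pair the cultures (correlations of deviations between -0.04 and 0.44, with 1 of 4 null cultures closest to its own number), and at day 5, where all 4 pairs deviated together, 2 of 4 were closest to their own. With the replicate block 0 members were called at either day and the genes called numbered 14 at day 5 and 90 at day 6, and with a block within each day 0 members and 72 and 170 genes. Among the named genes at day 5, the block within the day ended the calls of Sox17, Pmp22 and Ascl2, added that of Msx1 and changed no other. The cause of these changes was not tested.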
